A study of Mus musculus with 2 samples.

Results

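The genes described here are 8 that carry the proteolysis of the amyloid precursor protein and the prion protein in mouse cortex, out of 55536 genes in the deposited tables. They were chosen by name and by known function, not by a measured value, although earlier results of these data were known. They are the amyloid precursor family (App, Aplp1 and Aplp2), the alpha-secretase Adam10, the beta-secretase Bace1, the gamma-secretase subunits Ncstn and Psen2, and Prnp. All 8 were found in both libraries. Total RNA of the left cerebral cortex was sequenced in 2 libraries, labelled biological replicates 1 and 2, from male B6CASTF1/J mice aged 14 days, the F1 hybrid of C57BL/6 and CAST. Each library began with 300 ng of RNA and carried ERCC spike-ins, which are synthetic RNAs of known amount. The labels name 1 donor entry for both libraries and speak of 3 males, without stating whether each library is 1 animal or a pool, so the spread between the libraries may be technical. With 1 group there is no contrast between conditions and no p-value is given.

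Amyloid precursor proteins are membrane proteins that are cut in turn by secretases. Adam10 sheds the ectodomain by the alpha cut, within the amyloid-beta stretch, whereas Bace1 makes the beta cut at its start, and gamma-secretase then cuts the remaining stub within the membrane. Gamma-secretase is a complex of a presenilin, nicastrin (Ncstn), an Aph1 protein and Pen-2. The prion protein is a membrane-anchored glycoprotein that binds amyloid-beta oligomers and is itself shed by Adam10. Neurons are known to make mainly the App form without the Kunitz exon, which encodes a serine protease inhibitor domain, and other cell types make more of the longer forms.

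The alternative exons are shown first because the transcript results turn on them. The sequences were read from the GENCODE M21 transcripts (mm10, reference strain), so differences of the CAST allele are not shown. Exon 7 of App, at chr16:85043576-85043743 on the minus strand, and exon 7 of Aplp2, at chr9:31167561-31167728 on the minus strand, are both 168 bases long and both encode a Kunitz domain. Set side by side without gaps they are identical at 114 of 168 bases (67.9%), and capitals mark those shared bases.
App exon 7: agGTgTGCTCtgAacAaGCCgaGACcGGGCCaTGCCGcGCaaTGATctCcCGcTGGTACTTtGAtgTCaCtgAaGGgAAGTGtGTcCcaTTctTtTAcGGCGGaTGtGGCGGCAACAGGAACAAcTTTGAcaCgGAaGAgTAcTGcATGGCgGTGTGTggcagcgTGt
Aplp2 exon 7: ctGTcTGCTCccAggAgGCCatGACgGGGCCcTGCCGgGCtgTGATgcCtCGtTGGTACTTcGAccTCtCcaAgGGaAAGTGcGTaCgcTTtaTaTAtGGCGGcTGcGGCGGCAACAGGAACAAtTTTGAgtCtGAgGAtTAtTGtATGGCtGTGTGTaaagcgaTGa

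The junctions that skip these exons are the marks of the short forms. Each is given as 15 bases on either side, with the bases after the junction in capitals. In App-201 the skip joins exon 6 to exon 9, so that exons 7 and 8 are both left out, and in Aplp2-202 the skip leaves out exon 7.
App-201 junction: aggaggtggtccgagTTCCCACGACAGCAG
Aplp2-202 junction: ttcacgatgttaaagTTCCCCCGACTCCCC

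App was the most abundant of the 8 genes, with 583.1 TPM (a length-normalised share of all transcripts in the library) in replicate 1 and 588.8 in replicate 2, a mean of 586.0 ± 4.02 (SD, n = 2). It ranked 45 of 22015 nuclear protein-coding genes by mean TPM. App, which encodes the amyloid precursor protein, lies at chr16:84949685-85173766 on the minus strand of mm10. Aplp1, a family member made mainly in neurons, had 530.6 and 500.1 TPM (515.3 ± 21.6) and ranked 58. It lies at chr7:30434982-30445535 on the minus strand. Aplp2, the widely expressed family member, had 238.9 and 225.7 TPM (232.3 ± 9.33), rank 251, at chr9:31149557-31211815 on the minus strand. The values of the family members did not overlap in either library: App lay above Aplp1, and both lay above Aplp2.

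Summed, the amyloid precursor family reached 1352.6 TPM in replicate 1 and 1314.6 in replicate 2. App took 43.1% and 44.8% of this sum, Aplp1 39.2% and 38.0%, and Aplp2 17.7% and 17.2%. The second transcript table, made by the authors directly from the reads, gave App a mean of 43.4%, Aplp1 35.5% and Aplp2 21.1%. Within a library, the log2 ratio of App to Aplp1 was 0.14 in replicate 1 and 0.24 in replicate 2 (0.19 ± 0.07, a 1.14-fold difference). That of App to Aplp2 was 1.29 and 1.38 (1.33 ± 0.07, or 2.52-fold). Both ratios kept their direction in each library and exceeded the SD between them, and the smaller was close to equality.

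The secretases were far lower than their substrate. Bace1, the membrane aspartic protease that makes the beta cut, had 52.4 and 49.3 TPM (50.8 ± 2.21), rank 2194, at chr9:45838580-45864399 on the plus strand. Adam10, a membrane metalloprotease, had 34.5 and 37.9 TPM (36.2 ± 2.45), rank 3214, at chr9:70678997-70780229 on the plus strand. App exceeded Bace1 11.5-fold, with log2 ratios of 3.47 and 3.58 (3.53 ± 0.07). Bace1 lay above Adam10 in both libraries, and the log2 ratio of Adam10 to Bace1 was -0.60 and -0.38 (-0.49 ± 0.16).

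Among the gamma-secretase subunits, Ncstn, which encodes the substrate-receiving ectodomain subunit nicastrin, had 36 and 35.5 TPM (35.7 ± 0.37), rank 3260, at chr1:172066013-172082795 on the minus strand. Psen2, which encodes the catalytic subunit presenilin 2, was the lowest of the 8 with 9.76 and 8.26 TPM (9.01 ± 1.06), rank 8634, at chr1:180227004-180263438 on the minus strand. Ncstn exceeded Psen2 3.95-fold, with log2 ratios of 1.87 and 2.09 (1.98 ± 0.15). Adam10 and Ncstn could not be ordered: their log2 ratio was -0.06 in replicate 1 and 0.10 in replicate 2, and the direction differed between the libraries.

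Prnp had 243.6 and 244.0 TPM (243.8 ± 0.25), rank 235, at chr2:131909928-131938429 on the plus strand. App exceeded it 2.40-fold in the gene table (log2 ratios 1.26 and 1.27). Prnp lay just above Aplp2 in the gene table, by 1.05 times, with no overlap between the libraries. In the second transcript table the order was turned: Aplp2 had 446.9 and 421.8 TPM, above Prnp at 341.2 and 339.8. The place of these neighbours therefore depended on the table, whereas App, Aplp1, Bace1 and Psen2 kept their place in both and Adam10 and Ncstn overlapped in both.

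**Figure D1:**
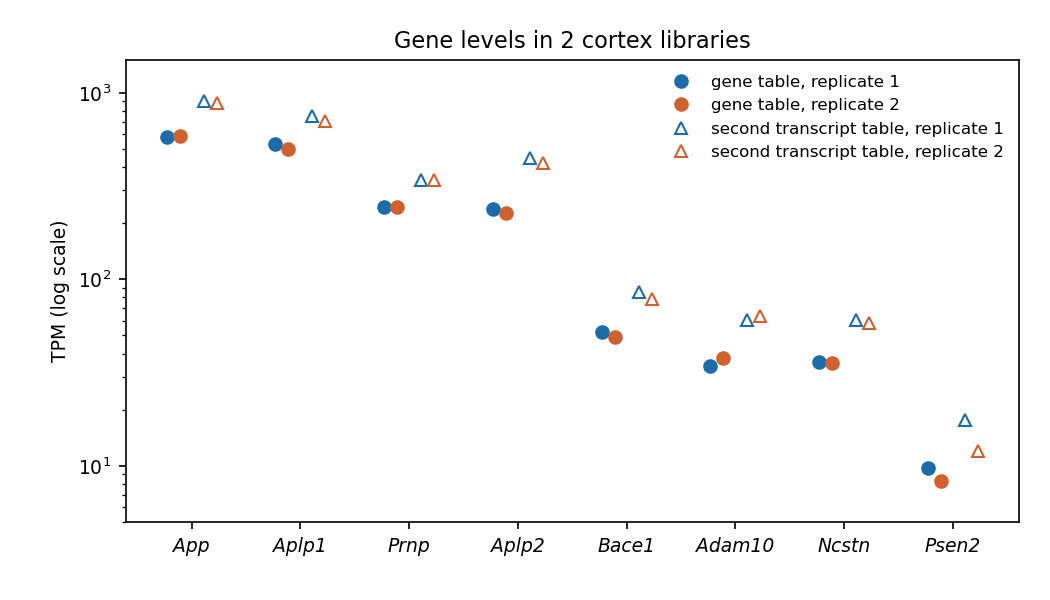
TPM of the 8 genes on a log scale, in order of the gene-table mean, with 1 point per library (filled circles, gene table; open triangles, second transcript table summed per gene). Levels ran from 8.26 TPM for Psen2 to 588.8 for App in the gene table, and all 8 genes were higher in the second table. The replicates of a gene lay close together, except for Psen2 in the second table, at 17.66 TPM in replicate 1 and 11.95 in replicate 2.

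The second table gave higher TPM for these genes as for most others. Over 12899 genes, its median ratio to the gene table was 1.56 in replicate 1 and 1.54 in replicate 2. Among the 8 genes this ratio ran from 1.39 for Prnp to 1.87 for Aplp2, so levels are compared here only within a table. The genes nearest to App in level over both libraries, by Euclidean distance of log2 TPM, were Ywhae (0.040), Tspan7 (0.055) and Olfm1 (0.082). Those nearest to Prnp were Marcksl1 (0.0094), Pfn2 (0.032) and Rpl19 (0.036). With 2 libraries of 1 condition, this likeness is one of level alone.

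Read support followed the gene-table levels, except that Aplp2 had more counts than Prnp. App was backed by 34722 and 37504 expected counts, Aplp1 by 22164 and 22483, and Aplp2 by 11301 and 12027. Prnp had 9619 and 10280.9, Bace1 4019 and 4167, Adam10 2635 and 3054, and Ncstn 1674 and 1761. Psen2 had 303 and 296, the thinnest support of the 8. For 7 of the 8 genes the deposited posterior SD of the gene count was 0 in both libraries and their expected counts were whole. The exception was Prnp, at 0.22 and 0.34, which shares 145 exon bases with the readthrough gene Prn (0 and 0.52 TPM).

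Of the other genes that overlap these on the opposite strand, those at App were listed at 0 in both libraries. Bace1 overlaps Gm16536, an antisense gene with 135 shared exon bases, 8.06 and 9.20 TPM. It also shares 951 exon bases with Gm49338 (9.12 and 9.46 TPM) and 975 with the protein-coding Rnf214 (31.3 and 34.4 TPM). Ncstn shares 195 exon bases with Copa, a coat protein gene at 71.1 and 73.9 TPM. The use of strand in counting is not given in the sources used here, so part of the Bace1 and Ncstn values may come from these partners; this was not tested.

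The forms of App came next. App-201, the transcript that skips exons 7 and 8 and encodes 695 residues, held 539.8 TPM in replicate 1 and 548.1 in replicate 2. Its share of the gene's TPM was 92.6% and 93.1% (92.8% ± 0.36). In the second table it was 88.8% and 91.5%. App-202, the 751-residue form with the Kunitz exon and without exon 8, held 2.56% and 2.02%. App-206, the 770-residue form with both exons, held 1.54% and 1.69%. The 695-residue form was thus the main form in both libraries and both tables, and the longer forms were each a few percent at most.

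App-203, of 752 residues, holds exons 7 and 8 but skips exon 15, and had 2.08% and 1.68% of the gene's TPM. App-204, which has exon 7 and skips exons 8 and 15, was listed at 0 in both libraries and both tables. App-207 skips exons 14 to 17, ends within exon 18 and was listed at 0 and at 0.16 TPM in the first table. App-206 and App-201 differ in transcript length, 8167 against 3176 bases, so a share by TPM and one by reads give different weights.

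**Figure D2:**
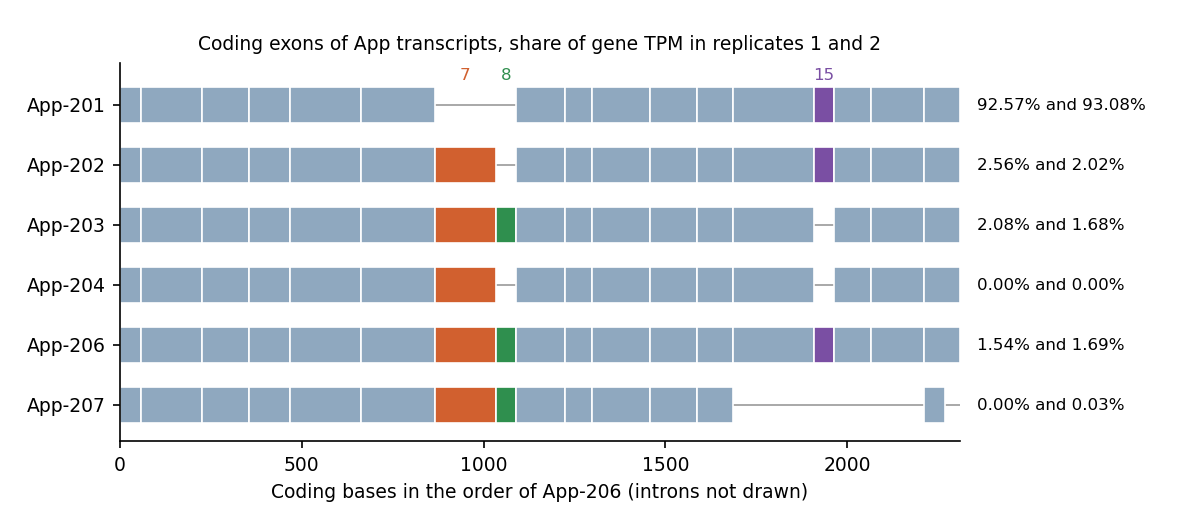
Coding exons of the 6 App coding transcripts, drawn to scale in the order of App-206 (x axis in coding bases, exons 7, 8 and 15 in colour, lines where an exon is left out), with the share of the gene's TPM in replicates 1 and 2 of the first transcript table at the right. App-201, without exons 7 and 8, held 92.57% and 93.08%, and no other form exceeded 2.56%.

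Counted over every transcript that holds or skips it, exon 7 of App was included in 6.41% of TPM in replicate 1 and 5.69% in replicate 2 (6.05% ± 0.51). By TPM the transcripts with it summed to 37.0 and 33.1, against 539.8 and 548.1 without it. Exon 8 of App (57 bases, chr16:85040251-85040307, minus strand), which encodes a short stretch related to the OX-2 antigen, was included in 3.83% and 3.65% (3.74% ± 0.13). In the second table the means were 6.99% for exon 7 and 4.51% for exon 8. Every annotated transcript with exon 8 also holds exon 7, so the order of these values was fixed by the annotation. When expected counts replaced TPM, exon 7 came to a mean of 8.45%.

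The equal-length Kunitz exon of Aplp2 was included far more. Transcripts with it summed to 111.4 and 110.1 TPM, and those that skip it to 62.9 and 58.8. The inclusion was 63.9% in replicate 1 and 65.2% in replicate 2 (64.6% ± 0.88), and 67.4% and 70.2% in the second table. The difference of Aplp2 minus App was 57.5 and 59.5 percentage points (58.5 ± 1.39), many times the spread between the libraries. In absolute level, Aplp2 thus gave more transcript with a Kunitz exon than App did in both libraries, although App was the more abundant gene.

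The size of the Aplp2 value rests in part on an incomplete transcript model. Aplp2-203, of 1961 bases and without a complete coding sequence, carries the exon and held 26.0% and 18.0% of the gene's TPM. With complete coding transcripts only, inclusion in Aplp2 was 43.9% and 54.2% (49.0% ± 7.22). It still exceeded that of App, at 6.25% and 5.49% on the same basis, and the difference was 43.2 ± 7.75 percentage points.

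**Figure D3:**
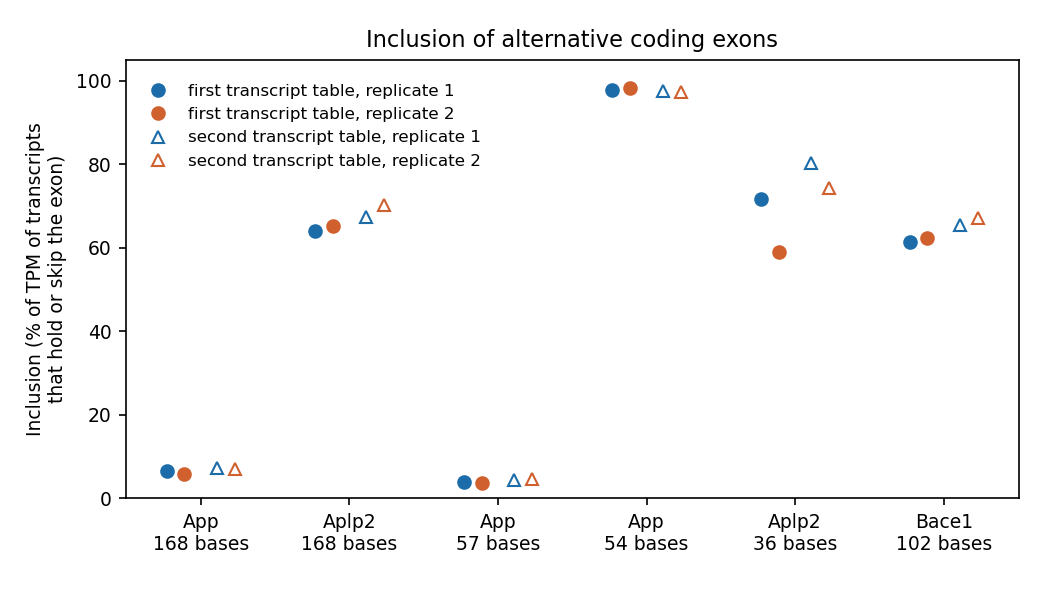
Inclusion of 6 alternative coding exons, as percent of the TPM of transcripts that hold or skip the exon, with 1 point per library (filled circles, first transcript table; open triangles, second). The 168-base Kunitz exon lay at 6.41% and 5.69% in App and at 63.9% and 65.2% in Aplp2, and the 36-base exon of Aplp2 showed the widest gap between the libraries.

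A further pair of exons near the membrane is also alternative in App and Aplp2. In both genes, skipping the exon is known to create an attachment site for chondroitin sulphate. The junctions formed by the skip are printed because they look alike, with the bases after the junction in capitals.
App-203 junction, without exon 15: ataccgaaaatgaagGTTCTGGGCTGACAA
Aplp2-201 junction, without the 36-base exon: tgtctgagaatgaagGCTCTGGAATGGCAG
Exon 15 of App (54 bases, chr16:84971408-84971461, minus strand) was included in 97.9% and 98.3% of TPM (98.1% ± 0.27), so the skipped form was rare. The 36-base exon of Aplp2 (chr9:31156190-31156225, minus strand) was included in 71.7% and 58.9% (65.3% ± 9.09). The forms that skip it summed to 49.3 and 69.5 TPM in Aplp2, against 12.1 and 10.04 TPM for exon 15 of App. In the second table the Aplp2 exon stood at 80.4% and 74.3%, lower in replicate 2 as in the first table. With complete coding transcripts only, which leaves out Aplp2-203, it was included in 56.1% and 45.9% (51.0% ± 7.22) in the first table. Aplp2-201 was the only transcript skipping it that was not at 0, and Aplp2-201 holds the Kunitz exon. The inclusion values of these Aplp2 exons are therefore tied by the annotation.

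The amyloid-beta peptide is encoded across exons 16 and 17 of App, at chr16:84965670-84965770 and chr16:84962722-84962868 on the minus strand. Both exons, joined, are given below with the 42 codons of the longer amyloid-beta peptide in capitals, residues 597 to 638 of the 695-residue form. Mouse amyloid-beta differs from the human peptide at a few residues near its start.
App exons 16 and 17: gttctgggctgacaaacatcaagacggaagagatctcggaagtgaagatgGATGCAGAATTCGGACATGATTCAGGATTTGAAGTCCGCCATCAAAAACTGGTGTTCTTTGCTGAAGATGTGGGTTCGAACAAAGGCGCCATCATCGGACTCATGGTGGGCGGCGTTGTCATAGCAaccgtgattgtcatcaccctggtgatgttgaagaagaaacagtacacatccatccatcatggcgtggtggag
These codons are whole in 5 of the 6 App coding transcripts, all but App-207. The transcripts that hold them had 100% and 99.97% of the coding TPM of App in replicates 1 and 2. The alternative App exons above therefore change the ectodomain, while the stretch cut by the secretases was kept in nearly all of the coding TPM of App. Reads were assigned to annotated models, and this share could fall only through reads assigned to App-207. A value near 100% was thus largely set by the annotation.

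Aplp2 was spread over more transcripts than its relatives. Aplp2-202, the 707-residue form without the Kunitz exon, held 26.3% and 26.1% of the gene's TPM. Aplp2-201, the 751-residue form with it, held 20.6% and 30.8%. Aplp2-207, annotated as a retained-intron transcript, held 19.0% and 14.5%. The leading transcript also depended on the table: in the second, Aplp2-203 led with 28.8% and 27.5%. In Aplp1, by contrast, a single coding transcript of 654 residues, Aplp1-201, held 96.8% and 97.6%.

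Bace1 was divided between a full-length form and one that lacks an exon. The 102-base exon 6 of Bace1-201 lies at chr9:45858400-45858501 on the plus strand. It is given below with the codons of the second catalytic aspartate's motif in capitals, residues 289 to 292 of Bace1-201, followed by the junction of Bace1-202 that skips the exon.
Bace1 exon 6: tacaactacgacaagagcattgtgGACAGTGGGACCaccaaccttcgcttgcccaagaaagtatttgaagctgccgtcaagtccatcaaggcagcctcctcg
Bace1-202 junction: atggactgcaaggagACGGAGAAGTTCCCG
Aspartic proteases such as Bace1 need a pair of aspartates for catalysis. Bace1-201, of 501 residues, held 37.9% and 40.2% of the gene's TPM (39.0% ± 1.64), and Bace1-202, of 467 residues and without the exon, held 37.1% and 37.2% (37.2% ± 0.07). The incomplete model Bace1-206, which holds the exon, had 16.48% and 16.97%.

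Over the Bace1 transcripts that hold or skip it, the exon was included in 61.4% and 62.3% (61.8% ± 0.61). In the second table the mean was 66.2%. The transcripts that hold it include the retained-intron transcript Bace1-204, which had a mean of 4.46% of the gene's TPM in the first table and 15.7% in the second. With complete coding transcripts only, the mean was 51.2% ± 1.00. The form without the exon led in the second table, where Bace1-202 had 34.7% and 32.9% against 27.0% and 29.9% for Bace1-201. Whether Bace1-202 was read as a full mRNA cannot be seen in these tables, since reads were assigned to annotated models.

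Adam10 mRNA was mostly the 749-residue form Adam10-201, with 82.9% and 77.1% of TPM in the first table and 61.8% and 60.5% in the second. The nonsense-mediated decay transcript Adam10-202 held 9.80% and 17.98% in the first and 23.6% and 29.5% in the second. It was higher in replicate 2 in both tables, and the tables differed more than the libraries did. Ncstn-201, of 708 residues, held 81.1% and 80.9% of Ncstn in the first table and 67.2% and 68.5% in the second. Prnp was nearly all one mRNA: Prnp-201, of 254 residues, held 99.7% and 99.6%.

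The transcripts of Psen2 could not be told apart by the tables. Psen2-205 held 67.0% and 79.5% in the first table, but 40.2% and close to 0 in the second. There Psen2-204 took 16.5% in replicate 1 and 82.8% in replicate 2. These are among 4 Psen2 transcripts, Psen2-201, Psen2-203, Psen2-204 and Psen2-205, that share an identical coding sequence of 448 residues. Summed, the 4 held 72.1% and 79.5% in the first table and 57.7% and 82.8% in the second. The deposited interval of the TPM of Psen2-205 ran from 0.32 to 5.96 in replicate 1 and from 0.60 to 5.48 in replicate 2, and its TPM of 6.54 and 6.57 lay above both upper bounds. By the deposited posterior mean TPM, its share was 27.7% and 33.2%.

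Total RNA libraries also hold unspliced and partly spliced RNA, and the 8 genes differed in the share annotated as retained intron. Aplp2 had 27.0% and 25.1% of its TPM in such transcripts (26.1% ± 1.35), and Ncstn 16.94% and 17% (16.97% ± 0.04). App had 0.63% and 0.83%, Aplp1 3.25% and 2.38%, Adam10 1.28% and 3.40%, and Bace1 4.68% and 4.24%. Psen2 had 15.6% and 10.8%, and for Prnp no such transcript is annotated. By TPM, Aplp2 and Ncstn thus stood well above the others with deep read support. By expected counts, Aplp2-207 alone held a mean of 11.7% of Aplp2. The Ncstn transcripts of this type, Ncstn-202, Ncstn-203 and Ncstn-205, are short, at 794, 831 and 772 bases. By expected counts they held means of only 1.45%, 2.30% and 1.15%, against 3.31% for Bace1-204. The distance of Ncstn from Bace1 therefore depended on the scale.

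As a reference, 5181 protein-coding genes with at least 10 TPM in both libraries and an annotated retained-intron transcript had a median share of 9.91%, with quartiles of 4.11% and 21.9%. Aplp2 lay at percentile 80.7 of these genes and Ncstn at 67.4, whereas App lay at 2.84. In the second table Aplp2 lay at 90.7, Ncstn at 80.5 and App at 3.42. Bace1 moved most between the tables, from percentile 27.0 to 63.7, and its retained-intron transcript Bace1-204 held 4.68% and 4.24% in the first against 13.5% and 17.9% in the second.

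**Figure D4:**
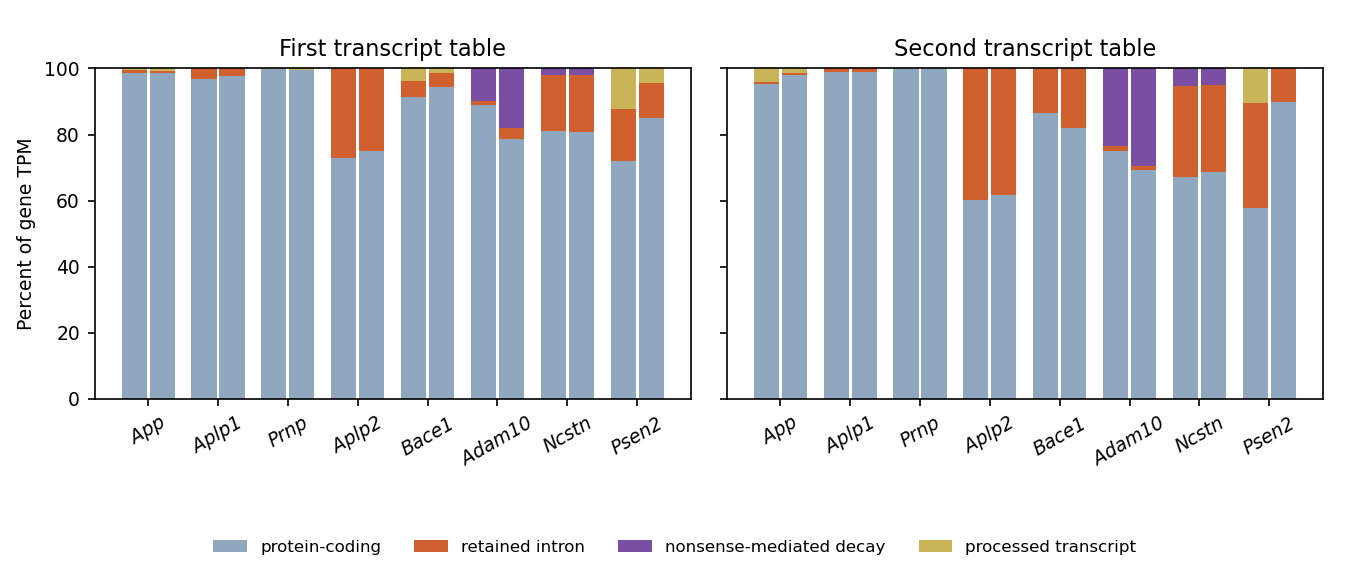
Percent of each gene's TPM by annotated transcript type, in the first (left) and second (right) transcript table, with replicate 1 as the left bar and replicate 2 as the right bar of each gene. App, Aplp1 and Prnp were nearly all protein-coding in both tables, Aplp2 had 27.0% and 25.1% of retained-intron transcripts in the first table, and Adam10 had the most nonsense-mediated decay transcript.

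Between the libraries the 8 genes differed little. On the scale of log2 CPM, counts scaled by library size, replicate 2 minus replicate 1, Psen2 differed by -0.13 (95% counting interval -0.37 to 0.10) and Adam10 by 0.11 (0.04 to 0.19). Aplp1 differed by -0.08 (-0.11 to -0.05). These intervals cover counting error only, and those of Adam10 and Aplp1 did not include 0. The other 5 genes lay between -0.05 for Bace1 and 0.012 for App, and their intervals all included 0.

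None of the 8 genes passed a 1.5-fold difference (0 of 8), against 11.0% of all 18965 genes tested. Among the 10183 genes averaging 250 counts or more, as these 8 do, the share was 2.02%. The median absolute log2 difference was 0.036 for the 8 genes, 0.14 over all genes tested and 0.089 over those averaging 250 counts or more. At a background of 2.02%, 0 of 8 does not set these genes apart.

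The small differences of the 8 genes stood beside larger ones in markers of other tissue. Of 8 markers of striatal neurons, such as Drd2 and Adora2a, all were lower in replicate 2, 7 of them past 1.5-fold, and their summed TPM was 558.7 in replicate 1 and 157.6 in replicate 2. The 6 markers of myelinating oligodendrocytes summed to 1070.4 and 700.5 TPM, all lower in replicate 2. The 5 choroid plexus markers summed to 32.4 and 123.1 TPM, mostly Ttr, and 2 of them reached 1 TPM in both libraries. Markers of cortical excitatory neurons (6 of 6), inhibitory neurons (6 of 6), astrocytes (5 of 5), microglia (5 of 5) and endothelium (4 of 4) were all at 1 TPM or more in both libraries, and none of 6 cerebellar markers was. In bulk tissue, fewer cells of a type and less RNA per cell cannot be told apart. The part of these tissue markers in the values of the 8 genes and of their transcripts was not tested.

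**Figure D5:**
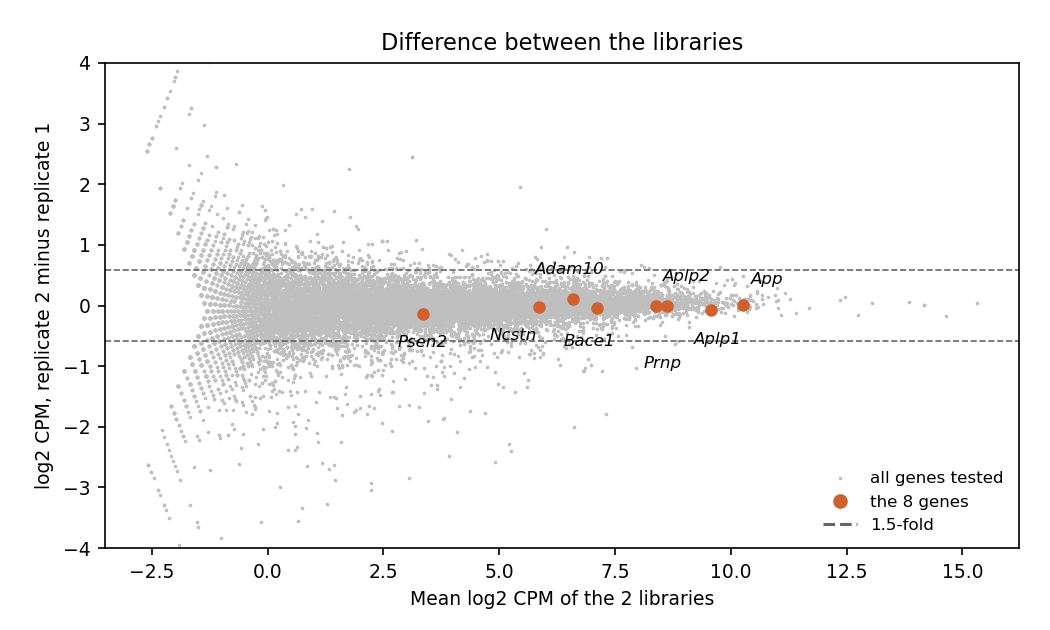
Difference between the libraries, as log2 CPM of replicate 2 minus replicate 1, against the mean log2 CPM, with 1 grey dot per gene tested (18965 genes, 24 of them outside the y axis), the 8 genes in orange and dashed lines at 1.5-fold. The 8 genes lay between -0.13 (Psen2) and 0.11 (Adam10), inside the dashed lines.

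The remaining parts of the pathway were read from 63 further genes in 8 lists. Of these, 60 (95.2%) had at least 1 TPM in both libraries, against 58.7% of 22015 nuclear protein-coding genes. The median of these 60 was 47.3 TPM, against 15.97 for the protein-coding genes that passed the same threshold. The lists were drawn up for genes known in brain, so a high share is built into the choice.

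All 4 of the other gamma-secretase genes were detected. Psenen, which encodes Pen-2, had 41.7 and 37.0 TPM, and Aph1a had 35.8 and 32.9. These lay near the 35.7 TPM of Ncstn. Aph1b had 9.18 and 9.26 TPM, near the level of Psen2, and Aph1c, a rodent duplicate of Aph1b, had 2.52 and 2.28. Aph1b and Aph1c are close copies, so the division of reads between them is uncertain.

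Adam10 and Bace1 were the highest of their enzyme groups among the sheddases measured. Adam10 exceeded Adam17, another metalloprotease with alpha-secretase activity at 7.50 and 8.13 TPM, 4.58-fold (log2 ratios 2.19 and 2.21). Adam9 had 23.1 and 24.6 TPM, Adam19 12.8 and 14.7, and Adam8 0.71 and 0.92. Bace1 exceeded its homologue Bace2, at 4.32 and 3.77 TPM, 12.3-fold (log2 ratios 3.57 and 3.67). The size of this ratio depended on the scale, with a mean log2 ratio of 4.53 in the second table and 4.61 by expected counts not divided by length.

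Prnd, which encodes the prion-like protein doppel, had 0.92 and 1.08 TPM, and Prnp exceeded it 222.3-fold (log2 ratios 7.90 and 7.69). In the second table Prnd had a mean of 0.011 TPM, so the size of this ratio depended on the table. Sprn, which encodes the prion-like protein shadoo, had 87.0 and 96.9 TPM. Beta-synuclein (Sncb), a presynaptic protein, was abundant at 383.9 and 397.6 TPM, above Prnp in both libraries. Gamma-synuclein (Sncg) had 1.89 and 0.98 TPM.

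The genes that bind, move or clear the precursor and its peptides were present throughout. All 10 adaptor and regulator genes passed 1 TPM, led by Itm2b (331.4 TPM), an inhibitor of precursor processing, and Itm2c (248.5). All 15 sorting genes passed, with Rtn3, a reticulon that binds Bace1, at 418.0 TPM and the endocytic receptor Lrp1 at 129.7. All 7 clearance genes passed, with Apoe, the main lipid carrier of brain, at 863.8 TPM, above App, and Clu at 307.0. All 12 further secretase substrates and all 6 surface partners passed, such as the adhesion protein Nrcam (226.1 TPM) and the GABA-B receptor subunit Gabbr1 (293.1 TPM).

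Between the libraries, 4 of the 63 pathway genes passed 1.5-fold, against 11.0% of all genes tested. Most of the 63 average 250 counts or more, and over all genes of that depth the share was 2.02%. Of the 4, only Sncg, with 27 and 15 counts, lay below that depth. Mme, which encodes the amyloid-beta-degrading protease neprilysin, had 7.79 TPM in replicate 1 and 3.91 in replicate 2. Spon1, which encodes an extracellular protein that binds the precursor, had 25.8 and 17.1, and Sncg is given above. Epha4, a receptor that gamma-secretase cuts, was the one higher in replicate 2, at 77.9 and 116.4 TPM. The striatal and other marker differences lay between the same 2 libraries, and their part was not tested.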

How the data were processed

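Expected counts, TPM and the percent of a gene's TPM in each transcript were deposited by the authors for 2 libraries. Per the file headers and deposited descriptions, the gene table and first transcript table came from transcriptome alignments to mm10 with GENCODE M21, with column names as RSEM writes them; the second transcript table came directly from the reads, with column names as kallisto writes them. The deposited TPM is relative to all entries of a file. For the aligner, the quantifier versions and the use of strand, nothing is given in the sources used here. Depth was 28263266 and 30862848 expected counts over 55536 genes; 26345 spike-in and number-only entries stayed out of the counts.

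The members and lists were chosen with earlier results of these data known. Named genes are all members, and the highest, the cited relatives and those past 1.5-fold of the pathway lists; 3 genes of the fixed lists are not reported here. Differences between libraries used rounded expected counts as log2 CPM (edgeR 4.0.16, R 4.3.3, TMM factors, prior count 2) for genes that reached 10 counts in 1 library or both. The steps for the difference between libraries were tested on simulated counts. Pair ratios are log2 of TPM + 0.1 within a library; a direction needs the same sign in each library and a mean larger than the SD. Exon inclusion is the TPM of transcripts holding the exon over those holding or skipping it. Sequences come from the GENCODE M21 transcripts; peptide codons were found in the translated coding sequence. Other steps used Python 3.11.15, pandas 2.3.3, numpy 2.4.6, scipy 1.17.1 and matplotlib 3.10.9; DESeq2 1.42.0 gave alternative size factors.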

Additional observations from a re-analysis of the deposited data

How the results depend on the processing

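Inclusion of the Kunitz exon of App moved by more than the spread between libraries to 6.99% with the second table and 8.45% with expected counts. That of Aplp2 moved to 68.8% with the second table, 59.6% with expected counts and 49.0% with complete coding transcripts only. Exon inclusion and all of its alternatives, and those by posterior mean TPM, were chosen after seeing the data. The Kunitz exon of Aplp2 stayed above that of App under each of these. Of 293 alternative values for single genes, pairs, exons and transcripts, 115 moved by more than the SD and 3 changed sign, all of values near 0 for which no direction is given. The library difference of App went from 0.012 to -0.016 with total counts, that of Prnp from -0.0028 to 0.0081 with the second table, and the log2 ratio of Adam10 to Ncstn from 0.02 to -0.06 without replicate 2. The latter was the 1 sign change among 55 alternatives for the 11 pair ratios. By expected counts not divided by length, the log2 ratio of App to Prnp was 1.86 and that of Adam10 to Ncstn 0.72. No member passed 1.5-fold under any normalization, prior count, filter or table tried. Of the 63 pathway genes, 55 passed at a threshold of 5 TPM and 61 with the second table. With 2 libraries, leaving 1 out gives the other's value, with no SD, and no library difference. No paired analysis was possible because both libraries belong to 1 group. Depth limits Psen2 most, with 303 and 296 counts.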
